A study of Mus musculus with 8 samples.

Results

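The complement and coagulation genes described here are 38 genes, chosen by name for their place in these cascades, with C3 as the gene that marks the list. All 38 had at least 1 probe on the array, found by gene name, older name or probe description, with 59 probes in all among 41174 noncontrol probes for 27671 gene names. Of the 38, 24 belong to complement and 14 to coagulation and fibrinolysis. Other names applied in the files to C1ra and C7, as C1ra was listed as C1r and C7 as a RIKEN clone described as similar to C7.

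RNA came from the oviducts of adult female CD-1 mice, an outbred strain, on GD2. All mice were injected subcutaneously on PND1–PND5, the controls with corn oil and the Gen-treated mice with Gen (the soy phytoestrogen genistein) at 50 mg/kg/day in corn oil. At 6–8 weeks of age all were superovulated and mated, and the oviducts were taken 48 hr after hCG with the embryos removed. Each of the 4 control and 4 Gen arrays held Cy3-labeled RNA of the pooled oviducts of 1 mouse, so the ovarian stimulation and pregnancy were common to both groups. The question was which oviduct genes still differed in the adult around the time when embryos were lost.

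Complement is a set of plasma proteins and receptors that mark surfaces for removal. The classical, lectin and alternative routes meet at the cleavage of C3, which leads to the anaphylatoxins and the membrane attack complex. Coagulation turns tissue factor exposure into thrombin and fibrin, and plasmin removes fibrin again. C3 is made by the oviduct and uterus as well as the liver, it is a classic estrogen-induced product of the rodent uterine epithelium, and its fragment iC3b is known as an embryotrophic factor of the oviduct.

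Signals are scaled array intensities, with group means taken on the log2 scale, and differences are Gen minus control in log2 units ± SE from limma with 4 arrays per group. Adjusted p is the Benjamini-Hochberg value over 41173 probes. A probe was taken as detected on an array where the scanner software called it well above background, and a gene with several probes is represented by its brightest. Controls had 25359–28934 probes well above background and Gen-treated mice 29527–31480, with more on each Gen array than on any control array. The arrays of each group shared a slide that held no array of the other group, and for that reason an effect of the slide and one of Gen cannot be told apart. In whole oviducts, fewer cells of a type and less RNA per cell cannot be told apart either. The oviduct epithelium markers (Ovgp1, Pax8, Foxj1, Krt8, Krt18, Epcam and Cdh1) were detected on every array, 0 of 7 were called by limma (1 at an unadjusted p under 0.05, 0 by the methods' plain test after adjustment), and their mean log2 signal was 15.46–15.50 in controls and 15.23–15.61 in Gen-treated mice.

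Most of the cascade was detected in these oviducts, and 1 detected gene of the 38, Masp1, passed the test between the groups. On all 8 arrays 31 of the 38 genes were detected, 6 on some arrays (C5ar1, C7, Cr2, F5, F7 and Plg) and 1, C9, on none. At an adjusted p under 0.05, 2 of 24 complement genes and 0 of 14 coagulation genes were called by limma. Masp1 was higher in Gen-treated mice, where 2.17% of all probes tested were called higher. The other call was C9, not well above background on any array, on the lower side, where 14.0% of all probes tested were called lower. Among the probes detected on all 8 arrays the call was less frequent, 1.93% higher and 2.44% lower, beside 1 of the 31 members higher and 0 lower. At an unadjusted p under 0.05 there were 5 complement and 3 coagulation genes, beside 28.2% of all probes tested, and the methods' plain test with Benjamini-Hochberg adjustment called none of the members.

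The 31 genes detected on all arrays lay more often above than below the control mean. A total of 22 had a positive and 9 a negative difference, with a median of 0.23 beside -0.0054 for all 24920 probes detected on all arrays, of which 49.1% were positive. The median was 0.16 for the 20 complement genes and 0.35 for the 11 coagulation genes. Without scaling the split was 28 to 3, with the median of all probes moved by 0.24. The groups did not overlap for 0 members on the higher side and 1 on the lower side (Cd59a), where 5.10% of all probes detected on all arrays did not overlap on the higher side and 7.34% on the lower. Single arrays stood out. Control 1 was the lowest of the 8 arrays for 14 of the 31 members, beside 14.8% of all probes, and Gen 2 and Gen 4 were the highest for 10 each, beside 13.6% and 21.9% of all probes.

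**Figure D1:**
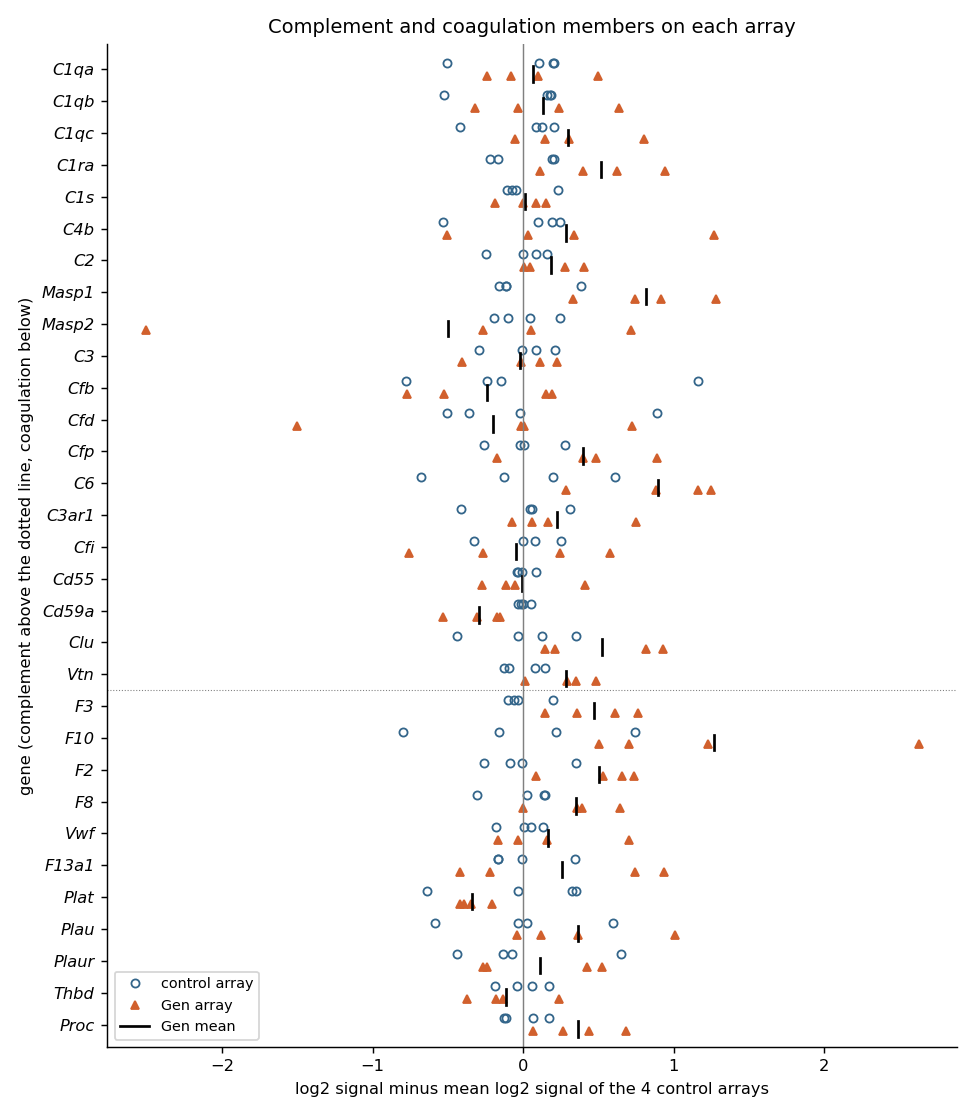
Log2 signal of each of the 31 members detected on all 8 arrays, as the difference from the mean of the 4 control arrays, with open circles for control arrays, triangles for Gen arrays and a black bar at the Gen mean. The groups overlap in every row but that of Cd59a, and the widest rows are those of F10, Masp2 and Cfd.

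**Figure D2:**
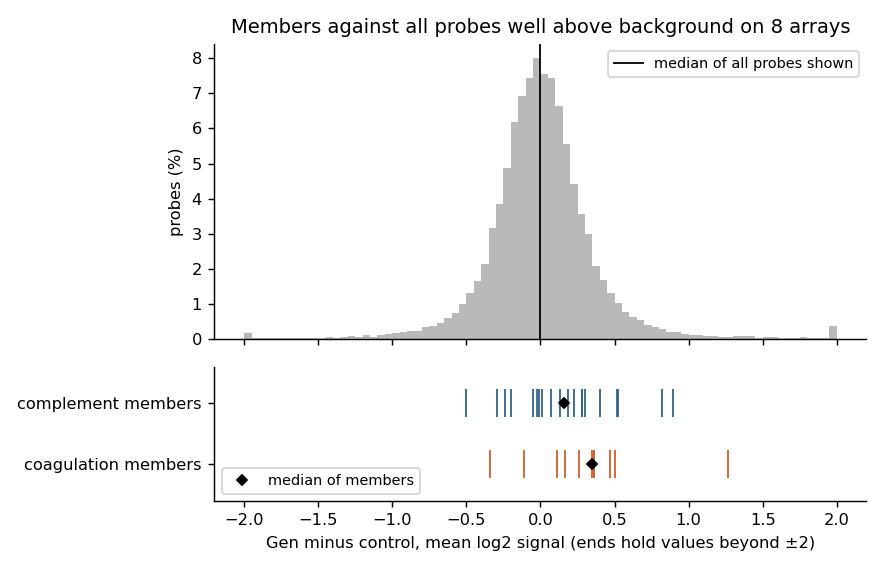
The upper panel gives the percent of the 24920 probes detected on all arrays in bins of the Gen minus control difference (log2), with a line at their median of -0.0054. In the lower panel each tick is 1 member and the diamonds are the medians, 0.16 for complement and 0.35 for coagulation.

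C3, the component on which all routes converge, had nearly equal means in the groups and did not pass the test. Its signals were 377051, 460055, 535240 and 488669 in controls and 539683, 499605, 347557 and 455941 in Gen-treated mice, and both the highest and the lowest of the 8 were Gen arrays. The group means were 461523 and 454648, a difference of -0.02 ± 0.18 (adjusted p = 0.952). A second, dimmer C3 probe had group means of 824 and 735, a difference of -0.16 ± 0.33. The sign of the C3 difference changed with the scaling and with the array left out, and its range over these settings was -0.12 to 0.22.

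The promoter of C3 is shown because C3 is the known estrogen target of the list. The sequence is the RefSeq window of GRCm38.p6, chr17:57228137-57228386 on the minus strand, the 250 bases before the gene's start, 5′ to 3′. Capitals mark 2 matches, to TTNCGNAA (a loose form of the site of C/EBP factors, which drive C3 in the acute-phase response) 45 bases before the start and, on the opposite strand, to TGACCT (a single arm of an estrogen response element) 243 bases before it.
C3: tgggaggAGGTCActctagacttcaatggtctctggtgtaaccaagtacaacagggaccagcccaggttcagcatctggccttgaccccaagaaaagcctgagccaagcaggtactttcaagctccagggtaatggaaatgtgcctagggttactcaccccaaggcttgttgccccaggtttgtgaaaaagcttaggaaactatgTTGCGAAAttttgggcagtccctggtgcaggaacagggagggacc
Both strands were searched in 300-base windows. TTNCGNAA was in 2.47% and TGACCT in 16.3% of all 32851 windows. Of the 27 windows that 25 of the 38 members had, TTNCGNAA was in 1 (C3) and TGACCT in 9. The complete palindromic estrogen response element was in 0.07% of all windows and in none of those of members.

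The classical route begins with C1q, which binds antibody and dying cells and is built of the chains of C1qa, C1qb and C1qc. None of the 3 passed the test. The C1qa signals were 5935, 9710, 9729 and 9083 in controls and 9024, 11924, 7976 and 7166 in Gen-treated mice, a difference of 0.07 ± 0.22, and control 1 was the lowest and Gen 2 the highest. C1qb (0.13 ± 0.25) and C1qc (0.30 ± 0.22) had the same lowest and highest arrays. Over the 8 arrays C1qb followed C1qa with r = 0.98 and rho = 0.83 (exact permutation p = 4.96e-04 and 0.0154), and C1qc followed C1qb with r = 0.94 and rho = 0.93 (exact permutation p = 8.43e-04 and 0.00223). C1qc against C1qa had r = 0.91 and rho = 0.71 (exact permutation p = 0.00466 and 0.0576), and without the 2 arrays farthest from the median r was 0.61 for that pair, 0.92 for C1qb with C1qa and 0.92 for C1qc with C1qb. With the group means removed, r was 0.98, 0.98 and 0.98 for the 3 pairs. These are 3 of 9 relations computed, 2-sided, for pairs chosen after the values were seen, and the adjusted p of r over the 9 was 0.0025, 0.0105 and 0.0025 for C1qb with C1qa, C1qc with C1qa and C1qc with C1qb. Those of rho were 0.0346, 0.104 and 0.01 in the same order.

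Since the C1q chains moved together, the promoters of the 2 chains in the table are shown, each the 250 bases before the start on the minus strand of GRCm38.p6, at chr4:136886201-136886450 for C1qb and chr4:136892915-136893164 for C1qc, credited to RefSeq. Capitals mark GAGGAA on either strand, the core that PU.1, a transcription factor of macrophages, binds.
C1qb: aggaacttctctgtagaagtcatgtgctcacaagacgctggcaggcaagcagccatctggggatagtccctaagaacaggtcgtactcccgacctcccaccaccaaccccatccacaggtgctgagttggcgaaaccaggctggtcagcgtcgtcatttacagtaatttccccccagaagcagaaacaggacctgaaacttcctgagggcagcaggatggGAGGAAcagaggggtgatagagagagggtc
C1qc: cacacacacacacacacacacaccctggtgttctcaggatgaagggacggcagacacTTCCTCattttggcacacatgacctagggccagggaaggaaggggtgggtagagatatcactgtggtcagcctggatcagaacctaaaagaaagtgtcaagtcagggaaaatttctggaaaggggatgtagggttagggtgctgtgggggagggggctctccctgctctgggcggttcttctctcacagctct
The match lay 30 bases before the start of C1qb and, on the opposite strand, 193 bases before that of C1qc. GAGGAA is common, in 28.3% of all windows and in 9 of the 27 windows of members.

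The proteases that C1q activates are C1r and C1s, and their substrates are C4 and C2. C1ra read 18357, 13784, 18530 and 14298 in controls and 17352, 24793, 21221 and 30979 in Gen-treated mice, a difference of 0.52 ± 0.20 that did not pass (adjusted p = 0.135), and only Gen 1 lay within the control range. C1s, its partner, was level at 26092 and 26315 (0.01 ± 0.13). C2 (0.18 ± 0.14) and C4b (0.28 ± 0.37) overlapped as well. The second, dimmer probes of C2 (-0.09 ± 0.24) and C1s (-0.05 ± 0.15) had the opposite sign to the brightest. The C4b signal was 26847 on Gen 2 and 7674–14039 on the other 7 arrays.

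Masp1, the gene of the protease that starts the lectin route, was the 1 detected member that passed, on its brightest probe alone. Its signals were 515, 516, 729 and 499 in controls and 932, 1054, 700 and 1358 in Gen-treated mice. Gen 3 lay below control 3, and the other Gen arrays lay above all controls. The means were 558 and 983, a difference of 0.82 ± 0.22 or 1.76-fold (adjusted p = 0.0413), and the exact 2-sided permutation p was 0.0571, where 0.0286 is the smallest that 4 against 4 can give. The call was lost under 8 of the 10 alternatives that keep all arrays and the same probe, with an adjusted p of 0.103 without dim probes, and leaving out any single array but control 3 also ended it (0.0603–0.103).

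Masp1 has 4 probes, and the others were at or near background. Their positions on mm7 chromosome 16, all minus strand, are 23127084–23127143 (probe 1), 23110952–23111011 (probe 2), 23138373–23138432 (probe 3) and 23108101–23108160 (probe 4). The first 30 of the 60 bases of each, as the files list them, are shown so that a reader can place the probe that carried the call.
Masp1 probe 1: aactgggaagagtcatcaaaacacactcca
Masp1 probe 2: gagtctattcttacatctatcccaacaagg
Masp1 probe 3: caatgggtgattattttaatctctcagtga
Masp1 probe 4: tccaggcaactgaaatctacctcccgagaa
Probes 2 and 3 were not well above background on any array, and probe 4 was so on 1 Gen array alone, with means of 9.56 (control) and 16.5 (Gen), a difference of 0.79 ± 0.37 that did not pass (adjusted p = 0.208). The mean over all 4 probes had a difference of -0.30 ± 0.30, opposite in sign to probe 1. Probes 2 and 4 are listed under the RefSeq transcript of Masp1, and probes 1 and 3 under other sequences. Which transcript of the gene carried the call was therefore not determined.

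Masp2, the gene of the lectin-route protease that cleaves C4 and C2, was low on a single array. Its brightest probe read 503, 455, 576 and 426 in controls and 85.6, 404, 504 and 799 in Gen-treated mice, so that Gen 1 lay far below the other 7 arrays and Gen 4 above them. Its other 2 probes gave 10.2 and 9.45 on Gen 1 and at least 89.8 on every other array, and so all 3 probes had the same low array. The group difference of the brightest probe was -0.50 ± 0.61, and without Gen 1 it was 0.17 ± 0.25. The probe at 9.45 is listed under another RefSeq transcript of Masp2 than the brightest. Whether the brightest probe measured the transcript of the protease was not determined.

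**Figure D3:**
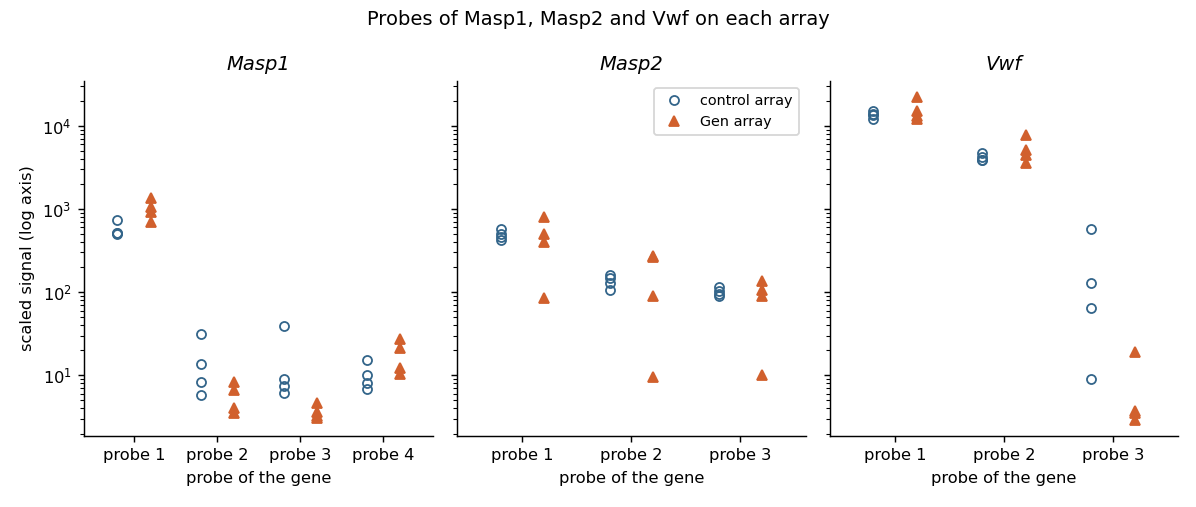
Scaled signal (log axis) of each probe of Masp1, Masp2 and Vwf on the 4 control arrays (open circles) and the 4 Gen arrays (triangles), with probe 1 the brightest and the rest in order of control signal. Of the Masp1 probes only probe 1 is well above background on all arrays, all 3 Masp2 probes have 1 low Gen array, and probe 3 of Vwf parts from the other two.

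The alternative route amplifies C3 cleavage with factor B (Cfb), factor D (Cfd, also called adipsin, a secreted product of fat cells) and properdin (Cfp). Cfb overlapped, with 41833 on control 3 and 10913–21350 on the other arrays (-0.24 ± 0.42). Cfp was 4396–6387 in controls and 4657–9764 in Gen-treated mice (0.40 ± 0.23, adjusted p = 0.308).

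Cfd varied within each group more than between them. Its signals were 26913, 19215, 50719 and 21340 in controls and 9644, 27393, 45083 and 27134 in Gen-treated mice, with a difference of -0.20 ± 0.49. Control 3 and Gen 3 were high and Gen 1 was low. The adipocyte markers moved with it. The mean log2 signal of the 5 detected markers (Adipoq, Cidec, Fabp4, Plin1 and Retn) was 12.03 on control 3, 12.06 on Gen 3 and 10.03 on Gen 1, with 10.61–11.43 on the other 5 arrays, and Lep was not well above background on any array. Over the 8 arrays r was 0.96 and rho 0.95 (exact permutation p = 6.94e-04 and 0.00114, adjusted over the 9 relations 0.0025 and 0.01). Without the 2 farthest arrays r was 0.91, and with the group means removed it was 0.97. Each slide holds 4 arrays, too few for a value within it.

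**Figure D4:**
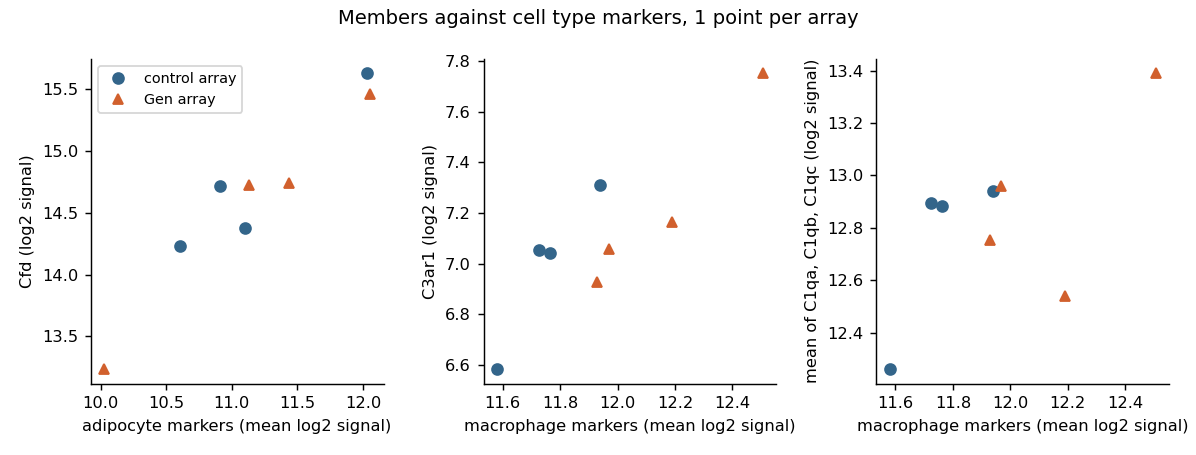
Each point is 1 array, with control arrays as circles and Gen arrays as triangles, the mean log2 signal of the marker list on the x axis and the log2 signal of the member on the y axis. Cfd follows the adipocyte markers over the 8 arrays (r = 0.96), while C3ar1 and the C1q chains have their highest value on the array with the most macrophage marker signal.

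The terminal components C6, C7 and C9 build the membrane attack complex. C6 read 48.1, 70.6, 118 and 88.5 in controls and 172, 183, 142 and 93.8 in Gen-treated mice, a difference of 0.89 ± 0.31 that did not pass (adjusted p = 0.100), and only Gen 4 lay within the control range. With normexp background correction the C6 difference was 0.37. C7 was well above background on 1 control and 3 Gen arrays, with means of 25.2 and 43.9 (adjusted p = 0.218).

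The receptors read complement fragments on cells. C3ar1, the receptor of C3a on myeloid cells, had means of 128 and 150 (0.23 ± 0.22). A second C3ar1 probe read 54.7–106 in controls and 110–149 in Gen-treated mice without overlap, a difference of 0.67 ± 0.21 that did not pass (adjusted p = 0.0682). C5ar1, the receptor of C5a, was well above background on 0 control and 2 Gen arrays. Cr2, the receptor of C3d on B cells and follicular dendritic cells, was so on 1 control and 2 Gen arrays (0.14 ± 0.45).

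The regulators hold complement back on the tissue's own cells. Cd59a, which blocks assembly of the membrane attack complex, was the 1 member detected on all arrays whose groups did not overlap. It read 8949, 9003, 8819 and 9362 in controls and 6231, 8018, 7296 and 8102 in Gen-treated mice, a difference of -0.29 ± 0.12 (adjusted p = 0.150; exact permutation p = 0.0286, the smallest possible). Without scaling that difference was -0.05. A second Cd59a probe, also detected on all 8 arrays, overlapped between the groups (-0.34 ± 0.17, adjusted p = 0.242). Cd55, which speeds the decay of the convertases, was level on its brightest probe (7102 and 7057, -0.01 ± 0.16) and on a second (-0.15 ± 0.16). Another, dim probe that the files name Cd55 lies apart from the brightest on mm7 chromosome 1, at 130295529–130295588 against 130344430–130352416, and within the span of the probe of Daf2, a neighbouring gene, at 130292778–130314715. It was well above background on 0 control and 4 Gen arrays, with means of 15.0 and 27.4, and limma called it higher (adjusted p = 0.0236). Its Gen mean was below the detection limit of every control array, so no size of the difference is given for it. Cfi, which cleaves C3b, was at 12767 and 12325 (-0.05 ± 0.29).

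Clusterin (Clu) and vitronectin (Vtn) bind the terminal complex in fluids, and both had positive differences that did not pass. Clu read 82947, 143874, 110106 and 123047 in controls and 198874, 130538, 124889 and 214620 in Gen-treated mice (0.53 ± 0.24, adjusted p = 0.204), with Gen 1 and Gen 4 above every control. Vtn was 1343–1625 in controls and 1483–2051 in Gen-treated mice (0.28 ± 0.14, adjusted p = 0.222).

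Coagulation starts at tissue factor, encoded by F3. Its signals were 10118, 11880, 9655 and 9958 in controls and 11450, 13312, 15839 and 17578 in Gen-treated mice, and 3 of the 4 Gen arrays lay above all controls. The difference was 0.47 ± 0.16 (adjusted p = 0.0899), with 0.45 ± 0.15 on a second probe (adjusted p = 0.0838). F3 passed under limma with an intensity trend and a robust fit alone (adjusted p = 0.0437). F7, the protease that tissue factor activates, was well above background on 2 control and 4 Gen arrays (0.49 ± 0.26).

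F10, F5 and F2 form and are cleaved by prothrombinase, the complex that makes thrombin. F10 had the widest difference of the coagulation genes detected on all arrays, 1.27 ± 0.51 (adjusted p = 0.144), from 64.7, 101, 188 and 131 in controls to 264, 696, 183 and 160 in Gen-treated mice. Gen 2 alone stood at 696, and without it the difference was 0.81 ± 0.37. F2, prothrombin, was 136–207 in controls and 172–270 in Gen-treated mice (0.50 ± 0.19, adjusted p = 0.125). F5 was well above background on 3 control and 4 Gen arrays (0.67 ± 0.45), again with Gen 2 the highest at 209.

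F8, the cofactor of factor IX, was at 248 and 316 (0.35 ± 0.17, adjusted p = 0.234). F13a1, the subunit that cross-links fibrin and a product of macrophages and platelets, was at 3698 and 4424 (0.26 ± 0.32). Vwf, the platelet tether stored in endothelium and carrier of factor VIII, was at 13593 and 15239 on its brightest probe (0.16 ± 0.20), and a second probe gave 0.27 ± 0.22.

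The third Vwf probe behaved otherwise. It read 64.3, 130, 574 and 8.96 in controls and 3.73, 2.93, 3.51 and 19.1 in Gen-treated mice and was well above background on 3 control and 0 Gen arrays, a difference that did not pass (adjusted p = 0.0624). The control arrays spread from 8.96 to 574, and of the Gen arrays only Gen 4 lay within that range, above control 4. The probes lie on the plus strand of mm7 chromosome 6 at 125709328–125709387 (probe 1), 125708635–125708694 (probe 2) and 125627345–125627404 (probe 3), and the first 30 of 60 bases of each are shown because probe 3 sits apart from the others.
Vwf probe 1: caagtgaggcctgtgcagctacagcggatt
Vwf probe 2: ccaaggtgcagtacatcaaagtgggagatt
Vwf probe 3: ggttcctgcgtaaaagtaagttggaactcc
The mean of the 3 probes gave a difference of -1.17, against 0.16 for the brightest.

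Fibrin is removed by plasmin, which the activators Plat and Plau release from plasminogen. Plat was 36686, 72943, 55949 and 71708 in controls and 44972, 42777, 43488 and 49689 in Gen-treated mice (-0.34 ± 0.22, adjusted p = 0.368). Plau (0.36 ± 0.30) and its receptor Plaur (0.11 ± 0.28) overlapped. Plg itself was well above background on 1 control array alone, at 57.7 on its brightest probe. A second Plg probe was not well above background on any array. Limma called it lower (adjusted p = 0.0236), where 14.0% of all probes tested were called lower. Of the anticoagulants, Thbd, the endothelial thrombin receptor, was at 10834 and 10013 (-0.11 ± 0.16), and Proc, the zymogen it helps activate, at 238 and 306 (0.36 ± 0.16, adjusted p = 0.177).

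Several of these genes are products of macrophages, and the macrophage markers differed between the groups. All 16 markers were detected on every array, 15 had a positive difference and 4 were called higher (Adgre1, Ctss, Mpeg1 and Tyrobp), beside 1.93% of all probes detected on all arrays, with a median of 0.46 and array means between 11.58 and 11.94 (control) and between 11.93 and 12.51 (Gen). The methods' plain test called 0 of them after adjustment. C3ar1 moved with them over the 8 arrays (r = 0.87, rho = 0.83, exact permutation p = 0.00704 and 0.0154, adjusted 0.0127 and 0.0346), but without the 2 arrays farthest from the median r was 0.33. The relation over all 8 arrays thus rests on control 1 and Gen 2, while with the group means removed r was 0.95. For F13a1 r was 0.73 and rho 0.45 (exact permutation p = 0.0358 and 0.267, adjusted 0.0537 and 0.344), with r = 0.67 without the same arrays and 0.81 with the group means removed. The mean of the C1q chains had r = 0.64 and rho = 0.55 (exact permutation p = 0.0885 and 0.171, adjusted 0.114 and 0.256), and without the 2 farthest arrays r was -0.69, and with the group means removed it was 0.68. The part of macrophages in the differences of these members was not tested.

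The endothelial markers (10 of 10 detected, 9 positive, 0 called by limma and 0 at an unadjusted p under 0.05, median 0.20) had weak relations with Vwf (r = -0.26, rho = -0.29, exact permutation p = 0.535 and 0.501, adjusted 0.535 and 0.501) and Thbd (r = 0.29, rho = 0.36, exact permutation p = 0.492 and 0.389, adjusted 0.535 and 0.438). Without the 2 arrays farthest from the median, r was -0.36 and 0.22, and with the group means removed it was -0.46 and 0.48. Of 6 platelet markers Gp1bb was called lower, beside 14.0% of all probes tested and 2.44% of those detected on all arrays. Of 6 B cell markers Pax5, not detected on all 8 arrays, was called higher, beside 2.17% of all probes tested. All 6 B cell markers had a positive difference, with a median of 1.09 and an array mean of 6.51–7.68 (control) and 7.33–9.496 (Gen). Of the 6 neutrophil markers detected on any array, 5 had a positive difference (median 1.09) and 0 were called, while all 6 smooth muscle markers had a negative one (median -0.30) and 0 were called, with 0 neutrophil and 1 smooth muscle marker at an unadjusted p under 0.05. Of the hepatocyte markers Ahsg was detected on all arrays (0.15 ± 0.31) and Apoa1 on 3 Gen arrays, and Alb, Apoa2, Apob and Ttr on none. The methods' plain test called none of these markers after adjustment, and their part in the differences of the members was not tested.

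Of 69 other names listed for the pathways, 68 had a probe and 57 were well above background on at least 1 array. In all, 11 of the 68 were called in either direction, beside 16.2% of all probes tested, 7 of them detected on all 4 arrays of a group and all of these higher in Gen-treated mice. The others, Adamts13, F13b and Fga among them, were not well above background on any array. Over the 41 detected on all arrays, 28 differences were positive and 13 negative, with a median of 0.11, and 5 were called higher beside 1.93% of all probes so detected.

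The 7 called and detected genes were C4bp, Colec11, Cpn1 and Itgam of complement and F9, Fgg and Serpind1 of coagulation. Serpind1, heparin cofactor II, read 10.1, 8.89, 15.9 and 12.1 in controls, none well above background, and 40.4, 118, 104 and 162 in Gen-treated mice, all well above it, so that it was at least 2.38-fold higher against the limits of the control arrays (adjusted p = 0.0236). With all signals raised to a common floor of 65.9, the highest of those limits, the Serpind1 difference was 0.70 and did not pass (adjusted p = 0.346). Fgg, the gamma chain of fibrinogen, read 8.85, 45.6, 19.4 and 6.21 in controls, with 1 array well above background, and 113, 536, 44.7 and 599 in Gen-treated mice (adjusted p = 0.0319), and Gen 3 lay just below control 2. The size of the Fgg difference is not settled, since 3 control arrays were below their limits, and it was 3.75 as measured, 1.75 with the floor and 1.59 with normexp. C4bp, which binds C4b and serves factor I, was 187–240 in controls and 325–971 in Gen-treated mice (1.20 ± 0.34, adjusted p = 0.0474).

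Colec11, a collectin that recruits the MASPs, was 496–941 and 1247–2488 (1.07 ± 0.29, adjusted p = 0.0374). Cpn1, the carboxypeptidase that inactivates anaphylatoxins, was 323–545 and 642–783 (0.76 ± 0.17, adjusted p = 0.0239). F9, factor IX, was 62.9–95.3 and 108–166 (0.75 ± 0.18, adjusted p = 0.0272). Itgam, the alpha chain of complement receptor 3 on myeloid cells, was 344–469 and 613–738 (0.74 ± 0.13, adjusted p = 0.0236). The groups did not overlap for C4bp, Colec11, Cpn1, F9, Itgam and Serpind1, which had been picked by adjusted p. Of the 41 pathway genes detected on all arrays, 7 did not overlap on the higher side and 0 on the lower. Beside them, 5.10% and 7.34% of all probes so detected did not overlap. Without dim probes Serpind1 (0.0276) and Itgam (0.0413) kept an adjusted p under 0.05, and no gene of the list was called with quantile normalization, normexp, the floor or the replicate block. When each of the 8 arrays was left out in turn, the call was lost in every fit for C4bp, was kept in 1 of 8 for Colec11 (without control 3) and Fgg (without control 2) and in 2 for F9 (without control 3 or control 4), and was kept in 4 of 8 for Cpn1 and Itgam and 5 for Serpind1.

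**Figure D5:**
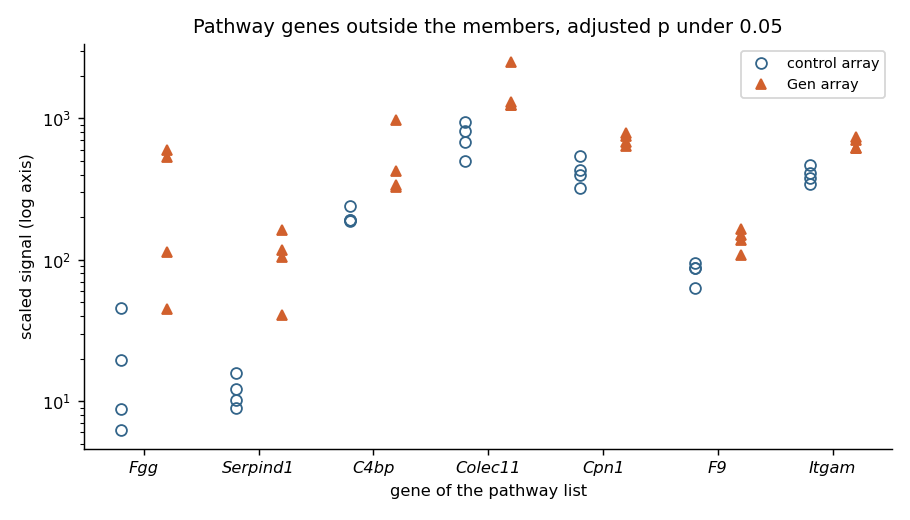
Scaled signal (log axis) of the 7 called pathway genes on the 4 control arrays (open circles) and the 4 Gen arrays (triangles). The groups part for all but Fgg, and Serpind1 is at 8.89–15.9 in controls and 40.4–162 in Gen-treated mice.

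Markers of ovarian steroidogenic cells moved with the groups as well. Of the 8 genes, 5 were called higher (Cyp11a1, Hsd3b1, Lhcgr, Inha and Cyp19a1), beside 2.17% of all probes tested. Of the 5 genes detected on all arrays, 3 were called higher, beside 1.93% of all probes so detected. The methods' plain test called 0 of the list after adjustment. The list's array mean was 7.43–9.22 in controls and 9.53–11.38 in Gen-treated mice. Cyp11a1 read 238, 354, 3903 and 271 in controls and 23785, 21029, 4444 and 8710 in Gen-treated mice, so that control 3 approached Gen 3. Their part in the differences of Masp1, F10 and the called pathway genes was not tested.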

How the data were processed

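The authors deposited 1 scanner file per array, made with Agilent Feature Extraction 9.5. Its processed signal, used here, is a linear intensity of each spot after background adjustment, with arrays not yet scaled to each other. The deposited table of values was equal to this intensity at all 45018 spots per array. Steps that the methods place later, in Rosetta Resolver, were not repeated.

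The 1639 control spots and the 64–135 outlier spots per array were left out, log2 signals of a probe's spots were averaged, and all 8 arrays were brought to the same 75th percentile of log2 signal. No dim probe was left out. The gene of a probe came from GRCm38.p6 tables by accession for 22951 probes, by symbol for 6659 and by synonym for 3109, and from the files for 8455. Groups were compared by limma 3.58.1 (lmFit, eBayes, 2-sided) in R 4.3.3, with Benjamini-Hochberg adjustment over the 41173 probes that had a value in both groups. Plots were drawn with matplotlib 3.10.9. Where no array of a group had a gene well above background, a bound is given, taken against the lowest signal well above background, which was 28.5–65.9 on control and 14.5–20.9 on Gen arrays. No member was saturated. The steps were tested on simulated data. The number of arrays limits the precision.

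C3 and members with an adjusted p under 0.05 or an unadjusted p under 0.01 were to have full statistics, the other detected members means and differences, and pathway genes were named where they passed and were well above background on 4 arrays of a group. The result of 1 pathway gene is not reported here. The members and lists were chosen with earlier results of these data known. Relations between members and markers were added after the values were seen. Arrays of a group share a replicate number with the other group, and the labels do not say that numbers pair mice. Alternatives were quantile normalization, no scaling, normexp (offset 50), 2 filters on dim probes, a floor, a robust fit with an intensity trend, the methods' plain test with equal variances, the replicate block, the mean over a gene's probes, outlier spots kept, and each array left out.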

Additional observations from a re-analysis of the deposited data

Results flagged for a closer look

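Among the 31 members detected on all arrays, 62 groups of 4 arrays were examined for a single array far from the others of its group, and 3 had one, where chance gives about 1 in 20 groups, or 3.1 of 62. C1qa was 5935 on control 1, with the next lowest control at 9083. C1qb was 2398 on the same array, with the next lowest control at 3853. Masp1 was 729 on control 3, with the next highest control at 516. Without control 1 the difference of C1qa was -0.10 and that of C1qb -0.04, against 0.07 and 0.13 with it, and none of these passed the test.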

How the results depend on the processing

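The count of called complement members, 2, was 0 with quantile normalization, no scaling, normexp, either filter on dim probes, the floor, the methods' plain test and the replicate block, and 1 with the mean of all probes of the gene. Leaving out single arrays gave 0–2. The count of called coagulation members, 0, was 1 (F3) with the intensity trend and robust fit, and 0 in every other alternative. The count of called pathway genes, 11, was 0 with quantile normalization, normexp, the floor, the methods' plain test and the replicate block, 3 without scaling and 2 with either filter on dim probes, and leaving out single arrays gave 0–9. The cause of these changes was not tested. Over all probes the number called moved as well, from 6674 to 320 and 265 with the filters on dim probes, to 178 with quantile normalization, to 0 by the methods' plain test and to 1 with the replicate block. It fell to 97 without control 1 and to 3, 2 and 1 without Gen 1, Gen 2 and Gen 3.

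The C3 difference of -0.02 was 0.042 with quantile normalization, 0.22 without scaling and 0.032 with normexp, and between -0.12 and 0.11 with single arrays left out, and it was not called under any of them. The Masp1 difference was -0.30 with the mean of its probes. For the other members and pathway genes named, 684 values kept their side of the threshold or moved by less than 1 SD, 107 lost the call with the same direction and 18 moved by more. At an unadjusted p under 0.01 the methods' plain test held 1 complement member (C9), 0 coagulation members and 7 pathway genes, and none of these also met the study's limits on fold and signal. As a paired design, same-numbered arrays had correlations of -0.08, 0.11, -0.02 and -0.18 in their deviations from the group means, so the numbers were not taken to pair the mice.

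The groups lie on separate slides, the probes well above background were more numerous on the Gen arrays, and dim probes fell on average (median -1.16 for probes not detected on any array). The number of calls over all probes changed with the filters on dim probes and also under other settings, and the cause was not tested. A difference of a member near background, such as C5ar1, C7, Cr2 or F7, is not measured well at these signals.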
